A study of Arabidopsis thaliana with 36 samples.

Results

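The afternoon level of each transcript was set against its morning level in shoots and in roots of Arabidopsis thaliana, and the change in shoots was compared with the change in roots. Of the series' 36 Affymetrix ATH1 arrays, 8 entered the comparison, chosen by the organ and time on their labels: 2 arrays of shoots at 6 h, 2 of shoots at 24 h, 2 of roots at 6 h and 2 of roots at 24 h. All plants were Col-0, grown on Murashige and Skoog medium with 16 h of light a day at 24 °C and 50% humidity, and were 16 days old when sampling began. They were the controls of a stress series and received no stress, but their boxes were carried out of the climate chamber, opened and put back as those of treated plants were. Sampling began 3 h after the lights came on, so the 6 h samples fell 9 h after lights on, in the afternoon, and the 24 h samples 3 h after lights on, in the morning of the next day. Hour of the day and time since handling therefore differed together between the 2 sampling times and cannot be told apart within these 8 arrays. Nothing in the labels tells whether the 2 samples of a group are different plants. The p-values hence rest on the spread between samples of a group, pooled over the 18 groups of the series, which may be technical, and precision is limited by how few arrays there are.

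Green shoots fix carbon by day and store part of it as starch, which is broken down to maltose and glucose in the dark, while roots live on sugar sent down from the shoot. Both organs carry a circadian clock, built around transcription factors that repress one another in turn, which gives many transcripts a fixed time of day. GIGANTEA (GI), an evening-phased component of the clock outside that set of factors, links it to flowering. Light and sugar supply also move transcripts over the day. Gene roles are given below as general knowledge of Arabidopsis, also for genes that the annotation lists by locus tag alone. Whole organs were measured, so fewer cells of a type and less RNA per cell cannot be told apart.

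The correlation of the 2 arrays of a group, over probe sets and not over independent replicates, was 0.979 to 0.99. The SD of the log2 difference between replicates was 0.232 to 0.297. The median signal of the 6 green tissue markers was 4615 and 4260 on the shoot arrays at 6 h, 4926 and 4688 on those at 24 h, 29.15 and 22.52 on the root arrays at 6 h and 34.5 and 37.45 on those at 24 h. The 5 root markers had a median signal of 19.33 and 21.97 on the shoot arrays at 6 h and 16.68 and 18.68 on those at 24 h, and 61.61 and 67.84 against 53.05 and 67.63 on root arrays. The organ labels and these markers therefore go together on all 8 arrays. The signal of 1 control probe set moved with the time of day in shoots: that for 25S ribosomal RNA (rRNA) was 2664 and 2408 on the shoot arrays at 6 h and 1096 and 814.5 on those at 24 h, without overlap. On root arrays it was 2194 and 1672 at 6 h and 1541 and 2360 at 24 h, with overlap. Ratios of 3' to 5' control probe sets, a sign of RNA quality, also separated the times. For actin the ratio was 5.762 and 4.04 on the shoot arrays at 6 h and 8.719 and 7.201 on those at 24 h, and it was 12.14 and 14.02 on the root arrays at 6 h and 18.92 and 11.92 on those at 24 h, where the times overlapped. For GAPDH it was 1.657 and 1.587 on the shoot arrays at 6 h and 1.432 and 1.477 on those at 24 h, and 1.049 and 1.358 on the root arrays at 6 h and 1.035 and 1.024 on those at 24 h, with no overlap in either organ. The part of these ratios in the results was not tested. Named genes that lost their called difference, or left the shared class, when the 25S rRNA signal entered the fit as a covariate are given below.

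The change from morning to afternoon was called in far more probe sets in shoots than in roots. Changes are differences of log2(signal + 10), 6 h minus 24 h, with their standard error (SE), tested with limma over 15091 probe sets and called at an adjusted p (Benjamini-Hochberg) under 0.05. In shoots 4775 probe sets (31.6%) were called, 2502 higher at 6 h (16.6%) and 2273 lower (15.1%). In roots 345 (2.29%) were called, 161 higher at 6 h (1.07%) and 184 lower (1.22%). The median absolute change over all probe sets was 0.257 in shoots and 0.118 in roots. At least 2-fold changes were called for 635 probe sets upward and 553 downward in shoots, and for 47 upward and 51 downward in roots.

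The difference between the organs was tested directly, as the shoot change minus the root change. It was called for 2517 probe sets (16.7%), 1338 with a positive difference (8.87%) and 1179 with a negative one (7.81%), and 529 and 459 of these reached at least 2-fold. The median difference over all probe sets was 0.0415 log2 units, and its median SE was 0.21. With each array centred on its median, the split of the called differences became 1011 positive and 1501 negative, and that of the shoot calls 1928 higher and 2840 lower. With the 25S rRNA signal as a covariate, 1135 differences and 2000 shoot changes were called. The share of positive calls therefore depends on the scaling while the number of calls moved little with it, and the number falls with the covariate.

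Both organs had a mean signal of at least 40 for 9626 probe sets, and these were sorted by the calls. A change was called in both organs for 172, in the same direction for 164 and in opposite directions for 8. Of the 164, 73 had no called difference between the organs and are described as shared, 88 changed more in shoots and 3 changed more in roots. None of the last 3 probe sets has a single gene name. A change called in shoots, not called in roots and different between the organs was found for 1583 (858 higher and 725 lower at 6 h), termed shoot-only here, and the converse for 30 (8 higher and 22 lower), termed root-only. In all, 3247 probe sets were called in shoots and not in roots and 53 the other way, but only those with a called difference are counted in these classes. The terms describe calls: a change in the other organ too small to be called is not shown to be absent.

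**Figure D1:**
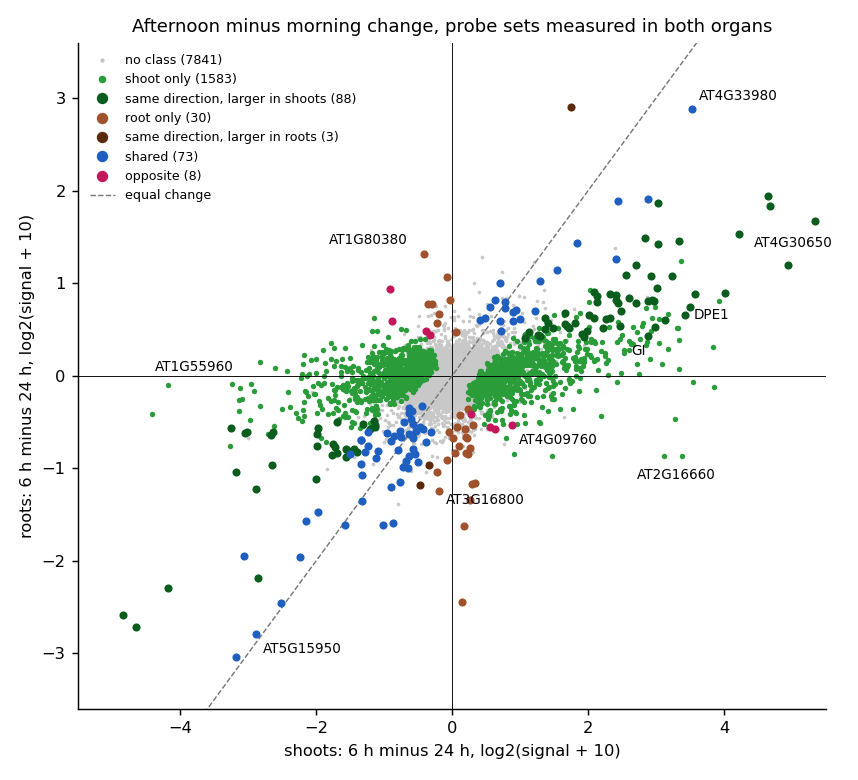
Afternoon minus morning change in shoots (horizontal axis) and in roots (vertical axis), both as differences of log2(signal + 10), for the 9626 probe sets measured in both organs. Each point is a probe set, coloured by class, and the dashed line marks equal change. The 1583 shoot-only points spread along the horizontal axis, the 30 root-only points lie along the vertical axis, and the 73 shared points follow the dashed line.

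The shared changes were led by a cold- and clock-regulated gene and by a polyamine synthesis gene. AT4G33980, a clock-linked regulator related to COR27 in function, had signals of 127 and 136 in shoots at 6 h and 0.72 and 4.01 at 24 h. In roots it had 133 and 90.9 at 6 h and 5.12 and 7.46 at 24 h. Both afternoon arrays lay above both morning arrays in each organ, as the naming rule asked. The change was 3.53 ± 0.221 in shoots (adjusted p = 1.75e-11) and 2.88 ± 0.221 in roots (adjusted p = 1.17e-08), and the difference of 0.641 was not called (95% interval -0.0082 to 1.29). As the morning signals lie near background, the added 10 limits the size of these values. AT5G15950, an S-adenosylmethionine decarboxylase gene, which makes the propylamine donor of polyamines, moved the other way. It had signals of 79.1 and 78.1 in shoots at 6 h and 638 and 656 at 24 h, and 24.7 and 30.5 in roots at 6 h and 300 and 208 at 24 h. It fell by 2.89 ± 0.214 in shoots and by 2.8 ± 0.214 in roots, with a difference of -0.0955 (95% interval -0.723 to 0.532).

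The other shared genes chosen by the naming rule had smaller changes. AT3G13040, a MYB-like regulator, had signals of 172 and 154 in shoots at 6 h and 448 and 404 at 24 h, and 74.7 and 93.4 in roots at 6 h and 200 and 174 at 24 h. AT2G36950, of the heavy-metal-associated protein family, had 97.2 and 114 in shoots at 6 h and 281 and 285 at 24 h, and 275 and 253 in roots at 6 h and 473 and 569 at 24 h. AT3G57880, a C2 domain membrane protein gene, had 38.9 and 39.7 in shoots at 6 h and 109 and 111 at 24 h, and 63.5 and 47.4 in roots at 6 h and 112 and 98.3 at 24 h. All 3 genes were lower in the afternoon in both organs, with no overlap between the times, as the naming rule asked. ATG8D, a member of the ATG8 family of autophagy, changed by 1 ± 0.109 in shoots and 0.61 ± 0.109 in roots, and TUB9, a beta-tubulin gene, by 0.478 ± 0.111 and 0.623 ± 0.111. With the 0 h arrays, taken at the same hour as the 24 h arrays, as the morning, AT3G13040 stayed shared. AT2G36950, AT3G57880 and ATG8D then changed more in shoots, with called differences of -1.26, -0.752 and 0.744. TUB9 was no longer shared there, as its changes were not called in both organs.

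Among the shared genes that rose, 3 had a weaker footing in roots. AT5G61590, also known as DEWAX, a repressor of wax synthesis, had signals of 609 and 604 in shoots at 6 h and 198 and 134 at 24 h, and 250 and 403 in roots at 6 h and 104 and 119 at 24 h. AT3G15450, a gene induced by sugar starvation and darkness, had 1635 and 1779 in shoots at 6 h and 606 and 557 at 24 h, and 1858 and 2357 in roots at 6 h and 874 and 1011 at 24 h. AT3G15630 had 231 and 309 in shoots at 6 h and 40.1 and 43.9 at 24 h, and 469 and 620 in roots at 6 h and 194 and 245 at 24 h. The afternoon arrays were all higher, as the naming rule asked, but the root call was kept in 5, 4 and 6 of the 8 fits that left out 1 array. With the 0 h arrays, taken at the same hour as the 24 h arrays, as the morning, the shoot change was -0.0312 for AT5G61590 and -0.211 for AT3G15450. The root change was then 1.46 for AT5G61590 and 1.27 for AT3G15450. For AT3G15630 the change was then 0.621 in shoots and 1.56 in roots. None of the 3 genes was shared against that earlier morning, before handling. Under the 25S rRNA covariate AT3G15450 and TUB9 were no longer shared.

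Over all 73 shared probe sets, 22 were higher at 6 h, with medians of 0.92 in shoots and 0.77 in roots, and 51 were lower, with medians of -0.8 and -0.81. The 95% interval of the difference between the organs lay within 1 log2 unit of 0 for 57 of the 73 and within 0.5 for 15, and it extended a median of 0.418 to either side of the estimate. For most shared genes, then, an organ difference of more than 2-fold is outside the interval, while smaller ones are not. Left-out arrays moved the count to between 48 and 77, and the lowest came without roots 6 h replicate 2. With the 0 h arrays as the morning 200 were shared, 30 of them among these 73.

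Genes that changed in the same direction in both organs, but more in shoots, included the starch gene DPE1 and the clock gene GI. DPE1 (AT5G64860), the plastid disproportionating enzyme that acts on maltotriose during starch breakdown, had signals of 547 and 525 in shoots at 6 h and 44.4 and 37.4 at 24 h. In roots it had 86.8 and 97.7 at 6 h and 59.9 and 49.8 at 24 h. The change was 3.43 ± 0.132 in shoots and 0.659 ± 0.132 in roots, a difference of 2.77 ± 0.187 (adjusted p = 3.69e-10). GI (AT1G22770) had 448 and 446 in shoots at 6 h and 52.2 and 43.3 at 24 h, and 357 and 268 in roots at 6 h and 196 and 228 at 24 h. GI was higher in shoots in the afternoon and higher in roots in the morning, with no overlap between the organs at either time. Its change was 2.99 ± 0.127 in shoots and 0.529 ± 0.127 in roots, a difference of 2.46 ± 0.18 (adjusted p = 1.3e-09).

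The same class held AT4G30650, a small membrane protein gene of the low temperature and salt responsive family, with 1401 and 1123 in shoots at 6 h and 28.5 and 33.9 at 24 h, and 166 and 154 in roots at 6 h and 62.4 and 66.4 at 24 h. Its shoot change of 4.94 ± 0.296 exceeded its root change of 1.19 ± 0.296 by 3.75 ± 0.419. In the downward direction, AT2G41250, of the haloacid dehalogenase-like hydrolase family, had 61.7 and 59.7 in shoots at 6 h and 692 and 644 at 24 h, and 75.3 and 69.6 in roots at 6 h and 102 and 121 at 24 h. AFR (AT2G24540), an F-box protein of far-red light signalling, had 40.4 and 32.8 in shoots at 6 h and 378 and 353 at 24 h, and 47.2 and 41.5 in roots at 6 h and 63.4 and 83.2 at 24 h. Both were near their root level in shoots in the afternoon and several times above it in the morning. The difference was -2.7 ± 0.205 for AT2G41250 and -2.41 ± 0.218 for AFR. The root calls of this class were the less firm side: they were kept in 6 of 8 left-out fits for DPE1 and GI, 5 for AFR, 4 for AT4G30650 and 2 for AT2G41250, while the differences were called in all 8 for each of them. Over the class, the 57 higher probe sets had medians of 2.48 in shoots and 0.78 in roots, and the 31 lower ones -1.97 and -0.77. With the 0 h arrays, taken at the same hour as the 24 h arrays, as the morning, 57 of the 88 met the definition again, GI among them. DPE1, AT4G30650, AT2G41250 and AFR were then shoot-only, with uncalled root changes of 0.393, 0.38, -0.356 and -0.321.

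**Figure D2:**
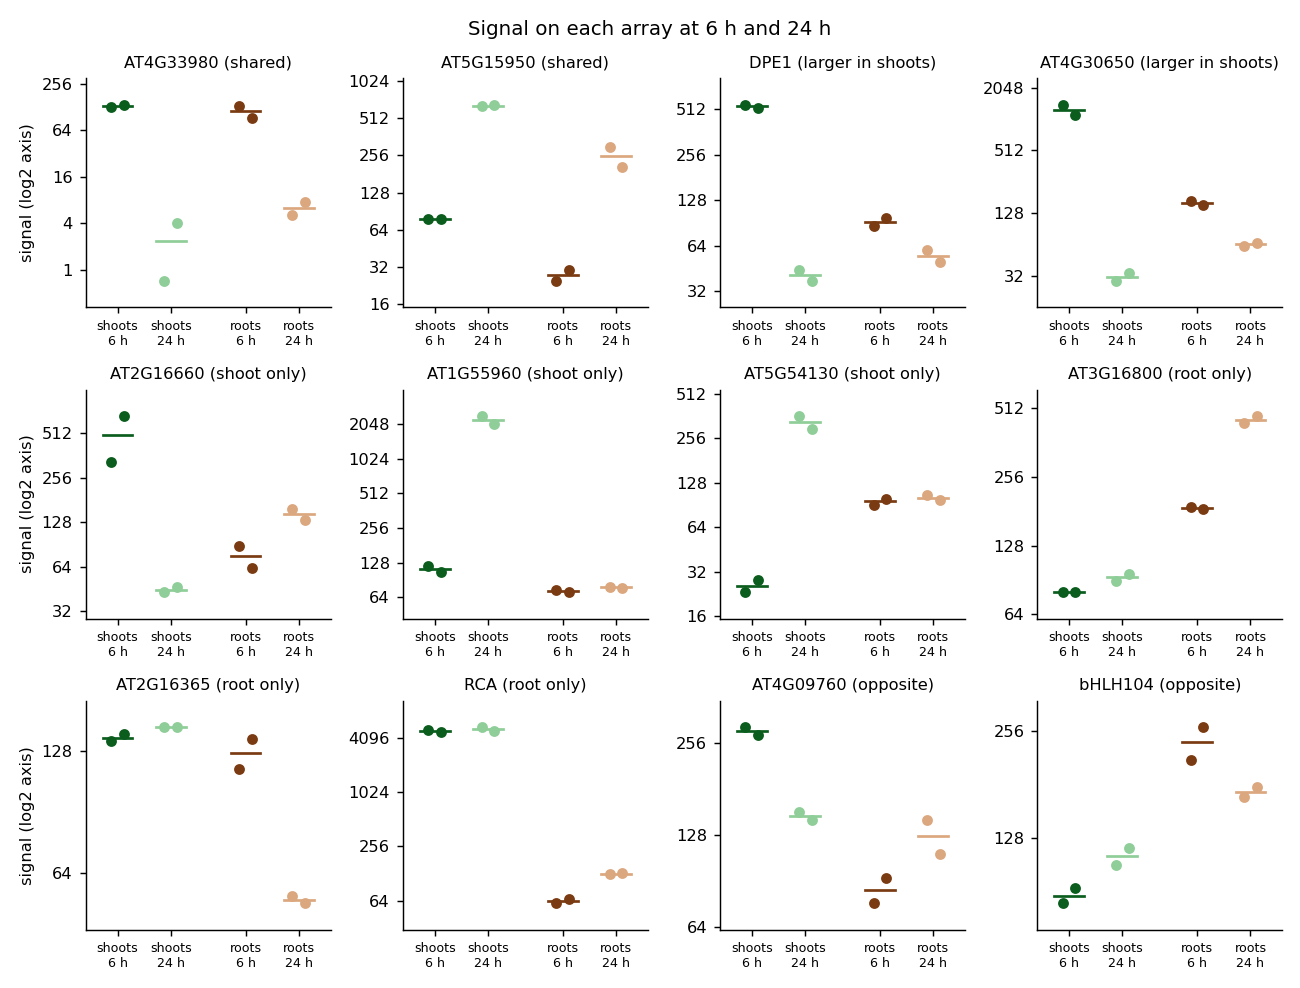
Signal on each of the 8 arrays (log2 axis) for 12 named genes, with a point for each array and a line at the mean of the 2 arrays of a group. AT4G33980 and AT5G15950 moved alike in both organs, and DPE1 and AT4G30650 moved more in shoots. The changes of AT2G16660, AT1G55960 and AT5G54130 were called in shoots and not in roots. Those of AT3G16800, AT2G16365 and RCA were called in roots and not in shoots. AT4G09760 and bHLH104 moved in opposite directions.

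The 3 named upward genes of the shoot-only class had shoot levels that crossed the root level. AT2G16660, of the major facilitator family of transporters, had 324 and 668 in shoots at 6 h and 43 and 46.3 at 24 h, and 88.2 and 62.6 in roots at 6 h and 158 and 132 at 24 h. AT5G35735, of a family of auxin-responsive membrane proteins, had 297 and 368 in shoots at 6 h and 17.9 and 20.8 at 24 h, and 179 and 160 in roots at 6 h and 183 and 174 at 24 h. AT4G30660, a neighbour in number and family of AT4G30650, had 1017 and 933 in shoots at 6 h and 50.9 and 58.3 at 24 h, and 234 and 273 in roots at 6 h and 123 and 160 at 24 h. In each of the 3 the shoot arrays lay above the root arrays in the afternoon and below them in the morning. The differences of the changes were 3.99 ± 0.544, 3.61 ± 0.544 and 3.13 ± 0.413 in the same order. Roots were not flat in all of them, although no root change was called. Without overlap between the times, root signals were lower in the afternoon for AT2G16660, opposite to shoots, and higher for AT4G30660.

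Downward, AT1G55960, of the START lipid-binding family, had 120 and 105 in shoots at 6 h and 2398 and 2042 at 24 h, and 73.7 and 70.8 in roots at 6 h and 79.1 and 76.8 at 24 h. Its shoot change of -4.18 ± 0.138 stood beside a root change of -0.0976 ± 0.138, a difference of -4.09 ± 0.196 (adjusted p = 2.57e-12). AT5G54130, of a calcium-binding phosphatase family, had 23.2 and 28 in shoots at 6 h and 363 and 294 at 24 h, and 91.1 and 100 in roots at 6 h and 106 and 97.4 at 24 h. Its 2 probe sets gave differences of -2.76 and -3.16. AT1G68440 had 49.8 and 78.4 in shoots at 6 h and 494 and 517 at 24 h, and 278 and 348 in roots at 6 h and 263 and 296 at 24 h. The root arrays of the 2 times overlapped for AT5G54130 and AT1G68440, and all 6 genes stayed in the class whichever array was left out.

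Root changes within the shoot-only class had no common direction. As the class leaves out called root changes and uncalled differences, this balance is partly set by its definition and does not describe roots at large. The 858 probe sets that were higher at 6 h in shoots (median 0.84) had a median root change of 0.01, and 440 of them moved in the same direction in roots. The 725 lower ones (median -0.79) had a median root change of 0.01, and 350 shared the sign. Under the 25S rRNA covariate 677 probe sets met its definition, 592 of them among these 1583. With the 0 h arrays as the morning 855 of the 1583 met the definition again. Beyond these fits, the part of the 25S rRNA signal in the class was not tested.

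Because the changes differ, the organ with the higher level differed between the times for some genes. Tested at each time, shoots and roots differed for 11269 of 15091 probe sets at 6 h (74.7%) and for 11824 at 24 h (78.4%). Among the 1789 probe sets measured in both organs with a called difference of changes, 199 were called in opposite directions at the 2 times: 117 were higher in shoots at 6 h and in roots at 24 h, and 82 the other way. For 197 of the 199 the arrays of the organs did not overlap at either time, but the calls were made on these same arrays. The shoots minus roots difference of AT4G30650 was 2.89 ± 0.3 at 6 h and -0.86 ± 0.3 at 24 h. For DPE1 it was 2.42 ± 0.13 at 6 h and -0.35 ± 0.13 at 24 h. AT5G54130 gave -1.57 ± 0.14 at 6 h and 1.59 ± 0.14 at 24 h, and AT1G68440 gave -2.14 ± 0.22 and 0.83 ± 0.22. A comparison of shoots with roots at 1 hour of the day would thus put these genes on opposite sides depending on the hour.

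**Figure D3:**
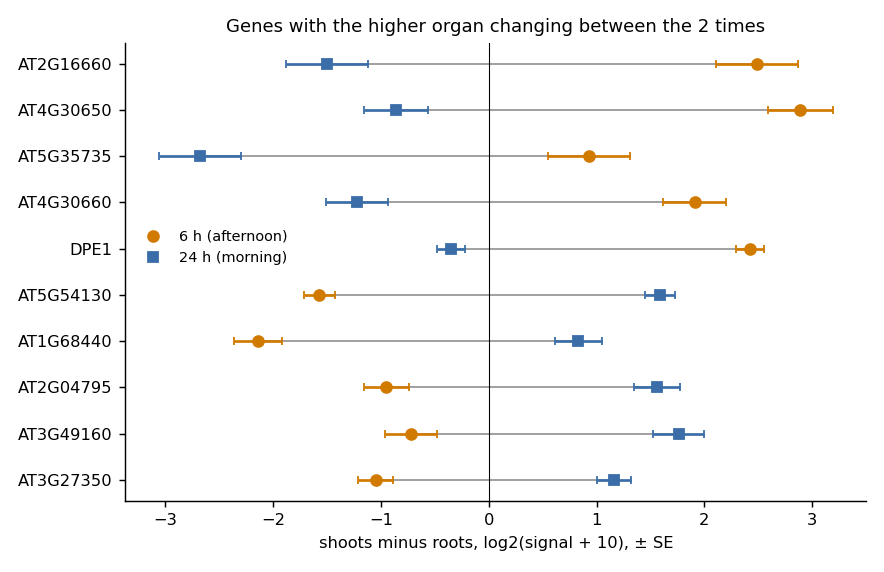
Shoots minus roots difference of log2(signal + 10), ± SE, at 6 h (circles) and 24 h (squares) for 10 genes whose higher organ differed between the times. The upper 5 genes were higher in shoots at 6 h and in roots at 24 h, such as AT2G16660 at 2.49 and -1.5, and the lower 5 were the reverse, such as AT5G54130 at -1.57 and 1.59.

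The root-only class was small. AT2G16365, a regulator of phytochrome B signalling and hypocotyl growth, had 136 and 141 in shoots at 6 h and 147 and 147 at 24 h, and 116 and 137 in roots at 6 h and 56 and 53.7 at 24 h. It was 1.07 ± 0.102 higher in the afternoon in roots, with a change of -0.0781 ± 0.102 in shoots and a difference of -1.15 ± 0.144 (adjusted p = 4.43e-06). AT1G80380, a glycerate kinase gene of photorespiration, had 1022 and 937 in shoots at 6 h and 1357 and 1270 at 24 h, and 384 and 713 in roots at 6 h and 225 and 184 at 24 h. AT1G61740, of a family of membrane exporters, had 385 and 488 in shoots at 6 h and 544 and 528 at 24 h, and 408 and 509 in roots at 6 h and 252 and 273 at 24 h. Their differences were -1.74 ± 0.428 and -1.07 ± 0.246, and their root calls were each kept in 5 of 8 left-out fits.

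Downward in roots, AT3G16800, a protein phosphatase 2C gene, had 80.6 and 80.1 in shoots at 6 h and 89.7 and 96.6 at 24 h, and 188 and 184 in roots at 6 h and 438 and 471 at 24 h. Its root change was -1.24 ± 0.131 and its shoot change -0.19 ± 0.131. AT5G38820, an amino acid transporter family gene, had 43.3 and 55.8 in shoots at 6 h and 35.4 and 37.9 at 24 h, and 34 and 34.7 in roots at 6 h and 85.2 and 93.9 at 24 h. AT1G20070 had 50 and 57.9 in shoots at 6 h and 47.7 and 39.1 at 24 h, and 43.1 and 36.7 in roots at 6 h and 125 and 108 at 24 h. All 3 calls in roots were kept in every left-out fit. Against the 0 h arrays their root changes were -0.906 for AT3G16800, -0.482 for AT5G38820 and -0.666 for AT1G20070, and none of the 3 was root-only. Of the 30 root-only probe sets 9 met the definition again with these arrays. Of the 6 genes named here, AT1G80380, AT1G61740, AT1G20070 and AT3G16800 lost the called difference under the 25S rRNA covariate, where the class held 6 probe sets, 4 of them among these 30.

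The downward members of the class held transcripts that shoots carry in large amounts. RCA (AT2G39730), the activase of the carbon-fixing enzyme rubisco, had 5054 and 4791 in shoots at 6 h and 5423 and 4953 at 24 h, and 59.7 and 66.9 in roots at 6 h and 127 and 129 at 24 h. SBE2.2 (AT5G03650), a starch branching enzyme, had 603 and 583 in shoots at 6 h and 586 and 568 at 24 h, and 54.8 and 67.6 in roots at 6 h and 122 and 110 at 24 h. The root change was -0.913 ± 0.136 for RCA and -0.831 ± 0.138 for SBE2.2, and the differences of 0.839 and 0.869 were not called under the 25S rRNA covariate. Of the 22 downward probe sets 13 (59.1%) were at least 4-fold higher in shoots, against 624 of the 9626 measured in both organs (6.48%).

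Signals of green transcripts on the root arrays were summarised too. Of the 6 green markers, 1 was called lower in roots at 6 h, RCA. Over 275 probe sets abundant in shoots, the median root signal was 1.714% and 1.867% of the shoot level at 6 h and 2.118% and 2.252% at 24 h. The summed signal of the 6 green markers on root arrays was 198.7 and 180.7 at 6 h and 283.5 and 305.7 at 24 h, with overlap between the times for PRK, SBPASE and LHCB4.3 and the marker PRK at 25.5 and 21.2 on root arrays at 6 h and 24 and 28.4 at 24 h. These values move with the root-only falls, and their part in them was not tested. The converse share on shoot arrays, over 86 probe sets abundant in roots, was 1.341% and 1.835% at 6 h and 0.8472% and 1.515% at 24 h, with overlap.

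Opposite changes were rare: 8 probe sets of 9626, 4 in each direction, of which 4 have a single gene. Against the 0 h arrays 3 of the 8 met the definition again, and none of the 4 named genes did. AT4G09760, of the choline and ethanolamine kinase family, had 288 and 272 in shoots at 6 h and 152 and 143 at 24 h, and 76.4 and 92.2 in roots at 6 h and 143 and 111 at 24 h. It was higher in the afternoon in shoots (0.881 ± 0.116) and lower in roots (-0.536 ± 0.116), a difference of 1.42 ± 0.165 (adjusted p = 1.42e-06). AT3G49310, of the major facilitator family, had 51.3 and 55.2 in shoots at 6 h and 33.6 and 32.1 at 24 h, and 61 and 58.6 in roots at 6 h and 89.1 and 96.7 at 24 h, with changes of 0.562 and -0.559. Arrays of the 2 times did not overlap in either organ, as the naming rule asked. The root change against the 0 h arrays was -0.239 for AT4G09760 and -0.166 for AT3G49310, and the difference was still called for AT4G09760 (1.28) and not for AT3G49310 (0.378).

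The other 2 opposite genes rest on small changes. AT4G14300, an RNA-binding protein gene, had 182 and 198 in shoots at 6 h and 151 and 158 at 24 h, and 150 and 162 in roots at 6 h and 208 and 212 at 24 h. bHLH104 (AT4G14410), a transcription factor of the iron deficiency response, had 83.6 and 92.3 in shoots at 6 h and 107 and 120 at 24 h, and 213 and 263 in roots at 6 h and 167 and 178 at 24 h. The differences of 0.692 ± 0.151 and -0.769 ± 0.164 were called in all 8 left-out fits, but opposite calls in both organs were kept in 0 and 1 of them, and in 6 for AT4G09760 and AT3G49310. Neither difference was called with the 0 h arrays (0.35 for AT4G14300 and -0.395 for bHLH104), and both organs moved downward for bHLH104, by -0.566 in shoots and -0.171 in roots. Under the 25S rRNA covariate neither difference was called (0.749 for AT4G14300 and -0.566 for bHLH104), and neither gene was opposite. The count of opposite probe sets ran from 3 to 16 over the left-out arrays. It was 3 without roots 6 h replicate 2 or roots 24 h replicate 2, 5 without shoots 6 h replicate 2 and 16 without roots 24 h replicate 1.

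Genes near background in 1 organ were read apart, since the added 10 compresses their changes there. Under 40 in roots, AT5G62360, a pectin methylesterase inhibitor family gene, had 930 and 919 in shoots at 6 h and 9.13 and 6.64 at 24 h, and 38.5 and 52.8 in roots at 6 h and 4.03 and 6.97 at 24 h. It was higher in the afternoon in both organs, by 5.71 ± 0.284 in shoots and 1.84 ± 0.284 in roots. AT4G34950, a major facilitator family gene, had 752 and 1014 in shoots at 6 h and 14.7 and 5.66 at 24 h, and 67.5 and 32.3 in roots at 6 h and 30.9 and 21.5 at 24 h. AT2G27420, a cysteine protease family gene, had 10.5 and 15.5 in shoots at 6 h and 544 and 487 at 24 h and at most 9.91 on a root array. AT3G28270 had 37.7 and 33.2 in shoots at 6 h and 932 and 899 at 24 h and at most 1.73 on a root array. For these 2 genes the root arrays give no readable change.

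Under 40 in shoots, PDF2.1 (AT2G02120), a plant defensin gene, had 0.967 and 0.341 in shoots at 6 h and 3.1 and 4.74 at 24 h, and 400 and 333 in roots at 6 h and 68.7 and 75.1 at 24 h. Its root change was 2.2 ± 0.207, while shoots stayed near background at both times. AT5G19890, a class III peroxidase gene, had 16.1 and 22.3 in shoots at 6 h and 14.7 and 12.2 at 24 h, and 227 and 336 in roots at 6 h and 50.8 and 64.8 at 24 h. AT3G12900, a dioxygenase gene of the coumarin synthesis that roots use under iron deficiency, had 13.6 and 19 in shoots at 6 h and 17.8 and 12 at 24 h, and 4.72 and 14.2 in roots at 6 h and 95.3 and 114 at 24 h. Their shoot signals show no readable change. AT1G73120 had 19.5 and 12.2 in shoots at 6 h and 22.9 and 13 at 24 h, and 5.61 and 24.7 in roots at 6 h and 138 and 165 at 24 h. Roots thus differed between the 2 times, in both directions, in genes that shoots barely carry. Set against 0 h, the root change was 1.75 for PDF2.1, 0.52 for AT5G19890, -1.84 for AT3G12900 and -2.85 for AT1G73120, and the difference was not called for AT5G19890 (-0.296) or AT1G73120 (1.56). The difference was called in 5 of 8 left-out fits for AT5G19890 and in 1 of 8 for AT1G73120, and under the 25S rRNA covariate in PDF2.1 alone of the 4.

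Gene lists were described by their calls and medians, beside 31.6% of probe sets called in shoots, 2.29% in roots and 16.7% for the difference. Several lists matched few of their symbols to a named probe set. These were 4 of 26 for flavonoid and phenylpropanoid genes, 6 of 37 for photosystems and antenna, and 4 of 32 for abscisic acid, drought and cold. Such lists describe the matched genes and not whole pathways. Of 10 kept genes of daily timing, 7 were higher and 2 lower at 6 h in shoots (median 0.41), 3 were higher and 1 lower in roots (median -0.02), and 5 had a called positive difference. With the 0 h arrays as the morning 3 differences were positive and 2 negative, and under the 25S rRNA covariate 3 were positive. Without shoots 6 h replicate 2 the positive differences were 2 and the shoot calls 4 higher and 1 lower. Without shoots 24 h replicate 1, roots 6 h replicate 2 or roots 24 h replicate 2 the positive differences were 3. The 3 that rose in roots were GI, AT4G33980 and COR27 (AT5G42900), a cold-regulated repressor tied to the clock. COR27 had 109 and 140 in shoots at 6 h and 0.532 and 4.36 at 24 h, and 35.7 and 37.7 in roots at 6 h and 0.72 and 0.8 at 24 h. AT2G47890, a B-box gene of the CONSTANS-like family, had 134 and 153 in shoots at 6 h and 5.17 and 5.85 at 24 h, and 279 and 337 in roots at 6 h and 214 and 209 at 24 h. Its difference of 2.79 ± 0.406 contrasts with that of AT4G33980, whose change was called in both organs. LIP1, a small GTPase that adjusts clock period to light, and TIC, a clock regulator, had differences of 0.65 and 0.48, called in 4 and 6 of 8 left-out fits, and neither was called with the 0 h arrays (0.194 and 0.295) or under the 25S rRNA covariate. The difference of COR27 was called in 4 of the 8.

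Of 4 kept genes of starch and maltose, 2 were higher and 1 lower at 6 h in shoots, 1 was higher and 1 lower in roots, and 3 differences were positive. The breakdown genes DPE1 and PWD (AT5G26570), the phosphoglucan water dikinase that prepares the starch granule surface for amylases, were higher in shoots in the afternoon. PWD had 1061 and 989 in shoots at 6 h and 132 and 129 at 24 h, and 133 and 124 in roots at 6 h and 89.3 and 93.8 at 24 h. Its change was 2.88 ± 0.133 in shoots and 0.445 ± 0.133 in roots, where it was not called (adjusted p = 0.091), and the difference was 2.44 ± 0.188 (adjusted p = 2.95e-09). SBE2.2, of starch synthesis, had a shoot change of 0.0381 ± 0.138 and fell in roots, as given above. The 1 lower in shoots was APL3 (AT4G39210), a subunit of ADP-glucose pyrophosphorylase of starch synthesis, with 46.9 and 34.2 in shoots at 6 h and 64.1 and 57 at 24 h, a change of -0.49 ± 0.187 (adjusted p = 0.0496), and it was under 40 in roots.

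Of 11 sugar transport genes, 3 were higher and 3 lower at 6 h in shoots, and 1 was lower in roots. SWEET2 (AT3G14770), a vacuolar sugar transporter, had 51.2 and 52.6 in shoots at 6 h and 285 and 258 at 24 h, and 53 and 71.9 in roots at 6 h and 51.1 and 51.9 at 24 h. TMT1 (AT1G20840), a pump that loads sugar into the vacuole, had 169 and 175 in shoots at 6 h and 46.6 and 47.9 at 24 h, and 490 and 354 in roots at 6 h and 228 and 356 at 24 h. These 2 transporters of the same membrane moved in opposite directions in shoots, by -2.18 ± 0.225 and 1.67 ± 0.18, with differences from roots of -2.41 ± 0.319 and 1.14 ± 0.254. SAG29 (AT5G13170) and SWEET1 (AT1G21460), both of the SWEET family and under 40 in roots, fell in shoots by 3.26 ± 0.358 and 0.981 ± 0.144. The TMT1 difference was not called under the 25S rRNA covariate (0.624) or with the 0 h arrays (0.408).

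The matched nuclear genes and the plastid genes for photosynthesis gave different calls in shoots. Among 6 nuclear genes of photosystems and antenna, limma called none higher at 6 h in shoots and 1 lower, which was also the 1 with an unadjusted p under 0.05 there. This was LHCB4.3 (AT2G40100), an antenna protein gene, with 208 and 210 in shoots at 6 h and 894 and 771 at 24 h. LHCB4.1 (AT5G01530), of the same family, had 7003 and 6064 in shoots at 6 h and 5830 and 5733 at 24 h, a change of 0.172 ± 0.164 that was not called. In the plastid genome, 38 of 69 genes were higher at 6 h in shoots and none lower (median 0.72), none was called in roots with limma (median 0.06, 1 at an unadjusted p under 0.05), and 13 had a called positive difference. By role, shoots were called higher for 20 of 33 photosynthesis genes, 7 of 10 genes of the NDH complex of cyclic electron flow and 8 of 20 genes of transcription and translation.

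The plastid genome values move with the 25S rRNA signal. psbD, of photosystem II, had 3474 and 3250 in shoots at 6 h and 1361 and 1022 at 24 h, and 95.7 and 67.2 in roots at 6 h and 60.7 and 152 at 24 h. petN, of the cytochrome b6f complex, had 314 and 284 in shoots at 6 h and 119 and 93.3 at 24 h, and 67.8 and 53.3 in roots at 6 h and 62.1 and 71.4 at 24 h. rpl20, of the plastid ribosome, had 879 and 775 in shoots at 6 h and 319 and 303 at 24 h, and 110 and 79 in roots at 6 h and 78.3 and 125 at 24 h. Under the 25S rRNA covariate 1 of the 69 was called higher and 6 lower in shoots (median -0.39), and 0 differences were positive and 4 negative (median -0.36), so the direction of this list is not settled. The count of 38 higher in shoots became 16 without shoots 6 h replicate 1 and 17 without shoots 24 h replicate 2, with none lower. psbD gave a difference of 1.75 ± 0.458 in the fit without the covariate and -0.363 with it, and its difference was called in 5 of 8 left-out fits. The differences of psbD (1.08) and petN (0.813) were not called with the 0 h arrays. The second root array at 24 h was also high for organelle genes, and without it 9 positive differences were called. Without roots 24 h replicate 1 there were 37, and without roots 6 h replicate 2 or shoots 24 h replicate 2 there were 8.

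Chlorophyll and carotenoid genes were mixed. HEME1 (AT3G14930), a uroporphyrinogen decarboxylase, had 662 and 761 in shoots at 6 h and 382 and 371 at 24 h, and 60.7 and 57.9 in roots at 6 h and 56 and 52.3 at 24 h. HEME1 was higher in shoots in the afternoon without overlap. LYC (AT3G10230), lycopene cyclase, had 404 and 416 in shoots at 6 h and 911 and 858 at 24 h, and 115 and 151 in roots at 6 h and 162 and 140 at 24 h. PORB (AT4G27440), the light-dependent protochlorophyllide reductase, had 4116 and 3357 in shoots at 6 h and 152 and 194 at 24 h and was under 40 on average in roots. The differences were 0.786 ± 0.124, -0.907 ± 0.171 and 4 ± 0.367 in the same order, and that of LYC was not called under the 25S rRNA covariate.

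The phenylpropanoid genes called in shoots fell by the afternoon. All 3 calls among 4 kept genes were lower at 6 h (median -1.2), and roots had 1 lower call. UGT78D2 (AT5G17050), a flavonoid glucosyltransferase, had 49.7 and 61.8 in shoots at 6 h and 215 and 240 at 24 h, and 149 and 187 in roots at 6 h and 172 and 151 at 24 h. HCT (AT5G48930), of lignin precursor synthesis, had 545 and 639 in shoots at 6 h and 1354 and 1301 at 24 h, and 574 and 530 in roots at 6 h and 668 and 615 at 24 h. The differences were -1.91 ± 0.221 and -0.944 ± 0.164. UGT78D1 (AT1G30530), of flavonol rhamnosylation, fell in both organs, by 1.24 ± 0.229 in shoots and 0.876 ± 0.229 in roots, and its root call was kept in 4 of 8 left-out fits.

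Among 32 kept UGT glycosyltransferase genes, 10 were higher and 5 lower at 6 h in shoots, 2 were lower in roots, and 9 differences were positive and 3 negative. With the 0 h arrays as the morning 3 were positive and 5 negative, and under the 25S rRNA covariate 4 and 2. UGT72E1 and UGT72E2, which glucosylate monolignols, had lower root signals in the afternoon. UGT72E2 (AT5G66690) had 32.8 and 45 in shoots at 6 h and 27 and 30.2 at 24 h, and 640 and 478 in roots at 6 h and 1022 and 1171 at 24 h, a root change of -0.971 ± 0.159. UGT72E1 (AT3G50740) had 105 and 115 in shoots at 6 h and 29.6 and 37.1 at 24 h, and 336 and 355 in roots at 6 h and 571 and 718 at 24 h, where the root change of -0.873 ± 0.39 was not called. The differences were 1.3 ± 0.225 for UGT72E2 and 2.34 ± 0.551 for UGT72E1, and neither was called with the 0 h arrays as the morning (-0.145 and 0.0894) or under the 25S rRNA covariate. UGT74D1 (AT2G31750) and UGT76C2 (AT5G05860) had negative differences of -1.45 ± 0.182 and -1.24 ± 0.258, and UGT71C5 (AT1G07240) a positive one of 1.06 ± 0.168. That of UGT71C5 was not called with the 0 h arrays (0.467), and that of UGT76C2 was not called under the 25S rRNA covariate.

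The 4 kept genes of abscisic acid, drought and cold response were all higher at 6 h in shoots (median 1.61), and limma called none in roots (median 0.31), where 2 had an unadjusted p under 0.05. COR15B (AT2G42530), a chloroplast protein of cold tolerance, had 1006 and 849 in shoots at 6 h and 24.6 and 27 at 24 h, and 13 and 8.91 in roots at 6 h and 14.2 and 15.1 at 24 h. COR15A (AT2G42540) had 333 and 179 in shoots at 6 h and 83 and 89.2 at 24 h. The dehydrin gene COR47 (AT1G20440) was measured in both organs, with 775 and 664 in shoots at 6 h and 200 and 198 at 24 h, and with 1271 and 1714 in roots at 6 h and 775 and 1020 at 24 h. The difference was called for COR15B (4.95 ± 0.423) and missed the threshold for COR15A (1.47 ± 0.567), COR47 (1.07 ± 0.388) and the dehydrin gene LTI30 (AT3G50970, 0.736 ± 0.332), so the list is not shown to differ between the organs as a whole. The count depends on the setting, with 3 of the 4 called in the fit of the 8 arrays alone. With the 0 h arrays COR15B (5) and COR15A (3.04) were called, and COR47 (1.07) and LTI30 (-0.158) were not.

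Universal stress proteins, small proteins of unsettled biochemical role, gave 4 higher and 2 lower calls in shoots and 2 higher in roots among 13 kept genes. The 2 root calls became 0 without roots 6 h replicate 2, without roots 24 h replicate 1 and with the 8 arrays alone. AT3G53990 had 869 and 847 in shoots at 6 h and 117 and 99.6 at 24 h, and 1236 and 1377 in roots at 6 h and 900 and 1033 at 24 h. AT3G17020 had 1137 and 1057 in shoots at 6 h and 348 and 320 at 24 h, and 1795 and 1806 in roots at 6 h and 1109 and 1386 at 24 h. These were the 2 root calls, and their changes were larger in shoots by 2.45 ± 0.135 and 1.15 ± 0.149. With the 0 h arrays as the morning the root change of AT3G17020 was still called (0.804), and that of AT3G53990 was not (0.175). AT3G62550 had 1981 and 2044 in shoots at 6 h and 74.2 and 64.7 at 24 h and at most 13.9 on a root array.

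All 7 tubulin genes changed in shoots, 6 higher and 1 lower at 6 h (median 0.48), and 1 was higher in roots. With the 25S rRNA covariate 2 were called in shoots, both higher. TUB5 (AT1G20010) had 674 and 713 in shoots at 6 h and 123 and 111 at 24 h, and 205 and 223 in roots at 6 h and 159 and 161 at 24 h, a difference of 2.07 ± 0.224 (adjusted p = 5.08e-07). TUB6 and TUA6 followed with differences of 0.65 ± 0.154 and 0.433 ± 0.119, neither of which was called under the 25S rRNA covariate, and that of TUA6 was called in 5 of 8 left-out fits. TUB9 was the tubulin called in roots and is among the shared genes above. Of 5 kept genes of gibberellin signalling, 1 was higher and 1 lower in shoots, and 2 differences were positive and 1 negative. GID1A (AT3G05120), a gibberellin receptor, had 120 and 129 in shoots at 6 h and 57.3 and 40.3 at 24 h, and 131 and 113 in roots at 6 h and 113 and 118 at 24 h, a difference of 1.14 ± 0.195. SLY1, an F-box protein of gibberellin signalling, had a called difference of 0.517 ± 0.155 with no call in either organ. The SLY1 difference was called in 3 of 8 left-out fits and not under the 25S rRNA covariate, and with the 0 h arrays neither GID1A (0.283) nor SLY1 (0.00848) had a called difference.

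Genes of sugar starvation had few called differences between the organs, and these depended on the morning used. Of 14 kept, 4 were higher in shoots (median 0.26) and 1 in roots (median 0.32), and 2 differences were called. ALDH6B2 (AT2G14170), of branched-chain amino acid breakdown, had 421 and 421 in shoots at 6 h and 159 and 152 at 24 h, and 620 and 724 in roots at 6 h and 505 and 527 at 24 h, a difference of 1.01 ± 0.274. BZIP53 (AT3G62420), a transcription factor of the starvation response, had a difference of 0.546 ± 0.176, which was called in 3 of 8 left-out fits and was -0.589 with the 0 h arrays as the morning. The ALDH6B2 difference was not called with the 0 h arrays (0.594), and neither was called under the 25S rRNA covariate. Against the 0 h arrays the negative differences of BZIP53 and of the starvation genes AKINBETA1 (-0.826) and MCCA (-1.31) were called. That of MCCB (-0.0163) was not. ATP citrate lyase and isocitrate dehydrogenase were represented by ACLA-3 and IDH-V, with differences of 0.812 ± 0.192 and 0.529 ± 0.172, 2 of 12 kept genes of the tricarboxylic acid cycle and citrate lyase. These were 0.0806 and 0.11 and not called with the 0 h arrays, and that of IDH-V was called in 3 of 8 left-out fits and not under the 25S rRNA covariate.

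**Figure D4:**
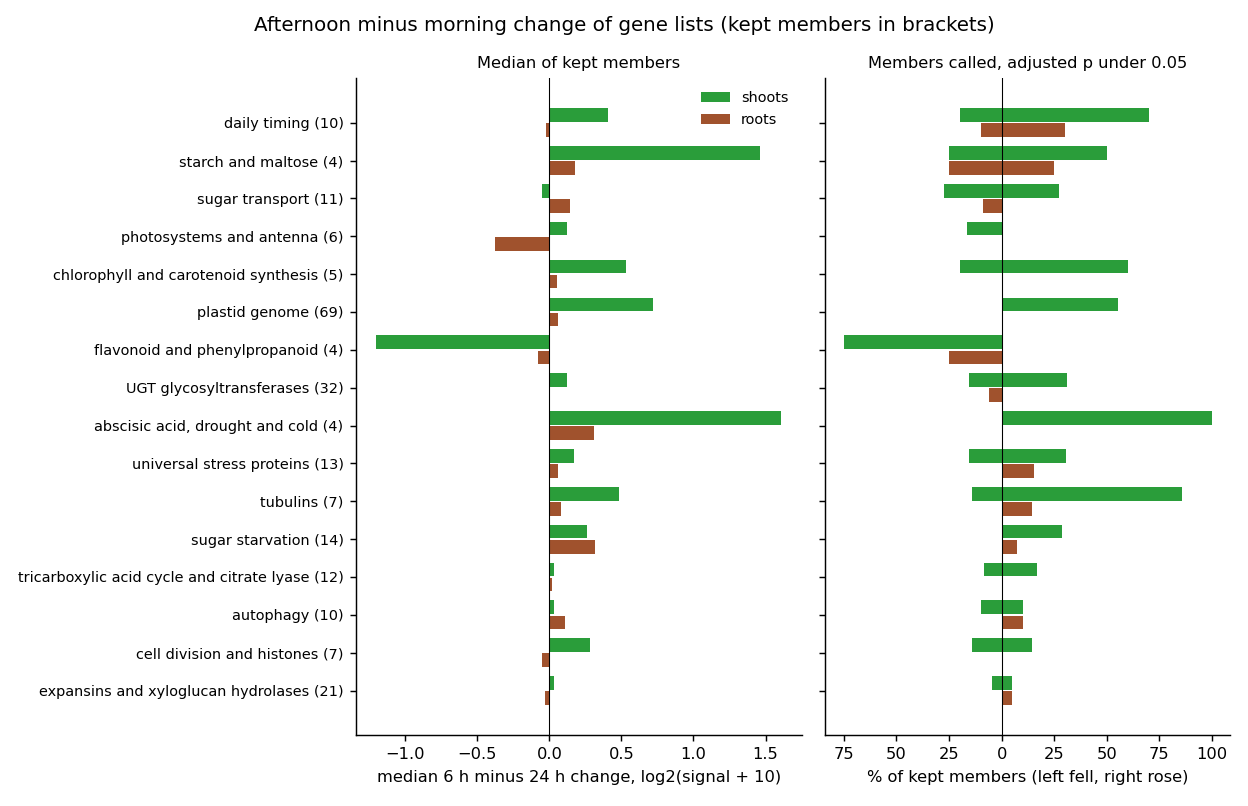
Gene lists in shoots (green) and roots (brown). The left panel gives the median 6 h minus 24 h change of log2(signal + 10) over the kept members, whose number is in brackets, and the right panel the percentage of members called lower (left of 0) or higher (right of 0). Among the lists shown, the largest shoot medians are 1.61 for abscisic acid, drought and cold and -1.2 for flavonoid and phenylpropanoid genes. The root medians shown lie between -0.38 and 0.32. Lists left out include clock and flowering time, with 3 kept genes and medians of 2.99 in shoots and 0.53 in roots. The plastid genome median of 0.72 in shoots became -0.39 under the 25S rRNA covariate.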

How the data were processed

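Transcript levels were measured on Affymetrix ATH1 arrays. The authors deposited 1 intensity for each of 22810 probe sets and array, made with MAS5 per the submitters' processing notes, in a version not given in the sources used here. Every array had a trimmed mean of 100, so no further scaling was applied. The 8 arrays were grouped by the organ and time on their labels.

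Intensities were converted to log2 after adding 10. Array controls (64 probe sets) were left out, and the filter asked for a signal of 40 or more on 2 or more of the 36 arrays, which 15091 probe sets met. One limma 3.58.1 fit (R 4.3.3) estimated the group means of all 36 arrays (18 means, 18 residual and 4.06 prior degrees of freedom), so that the residual variance comes from the whole series. The contrasts were 6 h minus 24 h in shoots, the same in roots, and their difference, each 2-sided with Benjamini-Hochberg adjustment over all kept probe sets and a threshold of 0.05. Differences between the organs at each time were added later, with the same fit. On simulated data with 15091 genes, the difference was recovered for 62% of 100 genes changed by 1 log2 unit and 97% of 100 changed by 2. Of the calls 2.45% were false. Far fewer genes were changed there than the 2517 called in the data. The noise was drawn from the spread of the fit, so the simulation cannot tell whether that spread is technical.

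A single gene was listed for 13513 probe sets in the probe table, several for 503 and none for 8794. Names were updated through the Entrez number for 13436, with the TAIR10.1 gene table, and 8117 named probe sets were kept. Genes were named by a rule: within each class, those with the largest change or difference, signals of at least 40 in each organ and no overlap between the times in each organ counted as changed, and up to 4 members of each list with the largest difference. The members of the comparison and the lists were chosen with earlier results of these data known. COR27, COR15A, COR15B, LTI30, PORB, SAG29, SWEET1, UGT72E2, UGT78D1, UGT71C5, AT3G62550, LHCB4.3, TUB9, TUA6, TIC, AT2G04795, AT3G49160, AT3G27350 and APL3 were named after their values were seen, and so were the genes named for a change of the higher organ. Written with results in view were the lists of daily timing, starch and maltose, universal stress proteins, tubulins, gibberellin signalling and sugar starvation. So were those of autophagy, citrate cycle, hypoxia, heat shock and organelle genes.

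The alternatives were pseudocounts of 1 and 50, no filter and a stricter one, quantile normalization, median centring, and a trend and robust prior. Others were the 8 arrays or 1 organ alone, the log2 signal of 25S rRNA as a covariate, and replicate number within each sampling time as a block. The 0 h arrays also took the place of those at 24 h, and each of the 8 arrays was left out in turn. After group means were removed, shoot and root arrays of the same time and number correlated at -0.115 to 0.0502, so the replicate numbers were not taken as pairs.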

Additional observations from a re-analysis of the deposited data

Results flagged for a closer look

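Each value here is a called difference between the organs under the same contrast, as the shoot change minus the root change in log2 units from limma. It was called for 2517 probe sets. No test for an outlying sample within a group was run, as a group has 2 arrays.

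Among genes measured in both organs with a change called in shoots and not in roots, AT2G16660 gave 3.99, AT5G35735 3.61, AT4G30660 3.13, AT1G55960 -4.09, AT5G54130 -3.16 and AT1G68440 -2.98. AT2G04795 gave -2.51, AT3G49160 -2.47 and AT3G27350 -2.22, and these 3 were lower in shoots than in roots in the afternoon and higher in the morning. Of the genes that changed in roots, AT1G80380 gave -1.74, AT2G16365 -1.15, AT1G61740 -1.07, AT1G20070 1.61, AT5G38820 1.51, AT3G16800 1.05, RCA 0.84 and SBE2.2 0.87. Of those that moved the same way but more in shoots, AT4G30650 gave 3.75, DPE1 2.77, GI 2.46, AT3G53990 2.45, AT3G17020 1.15, AT2G41250 -2.70 and AFR -2.41. Of those that moved in opposite directions, AT4G09760 gave 1.42, AT3G49310 1.12, AT4G14300 0.69 and bHLH104 -0.77.

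Among genes under 40 in roots, AT5G62360 gave 3.87, AT4G34950 4.81, COR27 1.33, COR15B 4.95, PORB 4, AT3G62550 4.39, AT2G27420 -4.79, AT3G28270 -4.31, SAG29 -3.27, SWEET1 -1.14 and LHCB4.3 -1.94. Among those under 40 in shoots, PDF2.1 gave -2.58, AT5G19890 -1.77, AT1G73120 2.69, AT3G12900 2.68 and UGT72E2 1.3.

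List members with a positive difference were AT2G47890 at 2.79, LIP1 at 0.65, TIC at 0.48, PWD at 2.44, TMT1 at 1.14, HEME1 at 0.79, UGT72E1 at 2.34, UGT71C5 at 1.06, RD2 at 0.88, TUB5 at 2.07, TUB6 at 0.65, TUA6 at 0.43, GID1A at 1.14, SLY1 at 0.52, BZIP53 at 0.55, ALDH6B2 at 1.01, ACLA-3 at 0.81, IDH-V at 0.53, CYP71B26 at 1.14 and PRXR1 at 0.59. Those with a negative difference were SWEET2 at -2.41, LYC at -0.91, UGT78D2 at -1.91, HCT at -0.94, UGT74D1 at -1.45, UGT76C2 at -1.24 and bHLH34 at -0.55. The differences of RD2 and bHLH34 were called in 3 of 8 left-out fits and that of PRXR1 in 4. None of these 3 was called under the 25S rRNA covariate. With the 0 h arrays RD2 (0.684) and bHLH34 (-0.276) were not called, while PRXR1 was (0.939). Organelle genes gave 1.75 for psbD, 1.55 for petN, 1.54 for atpH, 1.33 for ndhG, 1.46 for rpl20 and 1.72 for nad5, and none of these 6 was called under the 25S rRNA covariate. In the fits that left out 1 of the 8 arrays, the difference was called in 5 for psbD, 5 for atpH and 1 for nad5.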

How the results depend on the processing

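Main counts were 2517 differences, 4775 shoot and 345 root changes, and 73 shared, 88 larger in shoots, 3 larger in roots, 8 opposite, 1583 shoot-only and 30 root-only probe sets. With the 25S rRNA covariate 1135 differences, 2000 shoot changes, 1 larger in roots, 677 shoot-only and 6 root-only were called. A fixed replicate block gave 3111 shoot and 148 root changes, 38 shared, 33 larger in shoots, 1 opposite and 12 root-only. It called 2117 differences. In that fit the change of an organ refers to 1 replicate number and not to the mean of 2 arrays. Its shoot and root counts and its classes thus rest on another contrast, while the difference between the organs is the same. The plastid genome median moved from 0.72 to 0.38 in shoots and stayed at 0.65 for the difference. The numbers also do not pair the samples. A random replicate block gave 4777 shoot and 347 root changes, 73 shared, 88 larger in shoots, 9 opposite, 29 root-only and 2434 differences. With the 0 h arrays in place of those at 24 h there were 820 root changes, 200 shared, 5 larger in roots, 52 opposite and 111 root-only, which were taken at the same hour of the day before. Opposite probe sets numbered 15 with a pseudocount of 50, 5 with no filter and 3 with the 8 arrays alone, where 56 were larger in shoots, and quantile normalization over all arrays gave 5 larger in roots. Leaving out 1 array gave 1847 to 2300 differences, 3391 to 4818 shoot and 171 to 333 root changes, 48 to 77 shared, 39 to 83 larger in shoots, 1 to 4 larger in roots, 3 to 16 opposite, 1128 to 1445 shoot-only and 16 to 34 root-only. Without roots 6 h replicate 2 the root changes were 171, the larger in shoots 39 and the root-only 16, without roots 24 h replicate 2 they were 192, 46 and 16, without roots 24 h replicate 1 the larger in shoots were 57, and without shoots 24 h replicate 1 the larger in roots were 1. Called values of the named genes that changed sign included, with the 0 h arrays, AT5G61590 (shoots -0.0312, difference -1.49), AT3G15450 (shoots -0.211, difference -1.48), BZIP53 (difference -0.589), UGT72E2 (difference -0.145) and bHLH104 (roots -0.171), and, with the covariate, the differences of psbD (-0.363), nad5 (-0.581) and ccb382 (-1.68). The cause of these moves was not tested. The log2 scale with an added 10 limits changes of genes near background, and 2 arrays a group left a median SE of 0.21 for the difference.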

Other observations

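PDC2 (AT5G54960), a pyruvate decarboxylase of ethanol fermentation, had signals of 232 and 294 in shoots at 6 h and 46.7 and 36.7 at 24 h, and 682 and 435 in roots at 6 h and 238 and 173 at 24 h. Its change of 2.4 ± 0.379 in shoots was called and that of 1.38 ± 0.379 in roots was not (adjusted p = 0.0571, limma), although the afternoon arrays lay above the morning arrays in both organs. None of the 11 kept genes of the wider hypoxia list had a called difference, nor did any of the 10 autophagy genes, the 7 cell division genes or the 9 heat shock genes. At an unadjusted p under 0.05 in limma, the difference was counted for 0 of the 11 hypoxia, 4 of the 10 autophagy, 1 of the 7 cell division and 1 of the 9 heat shock genes, beside 4364 of all 15091 probe sets. Of 21 kept expansin and xyloglucan hydrolase genes, which loosen cell walls, 1 was higher and 1 lower at 6 h in shoots, and 1 was higher in roots, XTH16 (AT3G23730). XTH16 had 142 and 145 in shoots at 6 h and 136 and 133 at 24 h, and 67 and 77.8 in roots at 6 h and 37.3 and 48.3 at 24 h. Its difference between the organs was not called, so it is not shown to differ from shoots. With the 0 h arrays as the morning the difference was called (-0.556), but the change of neither organ was.

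The second root array at 24 h stood apart from the first for transcripts of both organelle genomes. On the first and second array rbcL had signals of 40.2 and 122, nad5 35.3 and 207, ccb382 283 and 802 and rpl16 300.5 and 968, while their values on the 6 h root arrays lay between those, such as 77.9 and 46.6 for rbcL. Of 13 kept probe sets of the mitochondrial genome, 5 were higher and 2 lower at 6 h in shoots and none was called in roots with limma, nor was any there at an unadjusted p under 0.05 (0 of 13).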
